A study of Homo sapiens and Mus musculus with 19 samples.

Results

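CC chemokines are small secreted proteins that draw white blood cells towards the cells that release them. Described here are 6 of them, CCL2, CCL5, CCL7, CCL20, CCL22 and CCL28, in human lung cancer lines, with their mouse counterparts in a mouse lung carcinoma line. They were taken by gene symbol, 6 of the 19775 genes named singly by a human probe set and 6 of the 18194 named singly in mouse. Each gene is represented by the brightest of its probe sets. The members cover 10 human and 8 mouse probe sets.

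The arrays came from cells transduced with a retrovirus that also carries green fluorescent protein and sorted on that marker. The vector called IKKb carried IKKβ made constitutively active by changing 2 serines to glutamate. The vector called IkB_SR carried the super-repressor form of IkBα. MiG was the control retrovirus. The human lines were A549 (lung carcinoma), H358 (bronchioalveolar carcinoma) and H23, HCC827 and PC9 (lung adenocarcinoma), each with all 3 vectors and 1 array per line and vector. The mouse cells, titled LLC-kB OVA and called LLC below, had IKKb and MiG with 2 arrays each, and what kB OVA stands for is not explained. Each vector imposes a constant state on cultured cells, and a single array per line and vector allows no test within a line. Nothing states that the 2 LLC arrays of a vector came from separate cultures, so p-values there may measure technical spread.

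NF-kB is held in the cytoplasm by IkB proteins. IKKβ phosphorylates IkBα and so marks it for destruction, after which NF-kB enters the nucleus and switches on its targets, chemokine genes among them. A super-repressor cannot be phosphorylated and keeps NF-kB bound. CCL2 and CCL7 attract monocytes through the receptor CCR2. CCL5 attracts T cells and monocytes, and CCL20 attracts CCR6-bearing lymphocytes and immature dendritic cells. CCL22 attracts CCR4-bearing T cells, regulatory T cells included, and CCL28 is an epithelial chemokine of mucosal tissue that acts on CCR10.

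The values are the deposited MAS5 signals, whose trimmed mean was 500 on each array. A signal at or below the 40th percentile of its array, which lay between 28.7 and 45.0 in human and between 30.1 and 39.6 in mouse, is called dim here and has no order among other dim signals. Array medians lay between 51.3 and 76.5 in human and between 55.0 and 64.4 in mouse, and precision is limited by the number of arrays. The epithelial markers EPCAM, KRT8, KRT18 and CDH1 lay above the dim range on all 15 human arrays, and KRT19 on all but those of H23. In LLC Krt8 and Krt18 were bright and Cdh1 was dim on all 4 arrays. Of 11 leukocyte markers 9 were measured, and between 3 and 6 of them lay above the dim range on each human array. The summed leukocyte signal ran from 334.4 to 1686 with IKKb, from 287.6 to 550.0 with IkB_SR and from 284.5 to 735.9 with MiG, and the highest sum, on the HCC827 IKKb array, held 1366 from HLA-DRA alone. The pan-leukocyte marker PTPRC was dim on 4 of 5, 5 of 5 and 5 of 5 arrays in the same order of vectors. RELB, an NF-kB subunit gene, was between 3.27-fold and 6.50-fold higher with IKKb than with IkB_SR in the 5 lines. TNFAIP3, a feedback inhibitor, stood 37.2-fold higher in HCC827, 23.1-fold in H358, 9.87-fold in PC9, 4.99-fold in A549 and 4.18-fold in H23. NFKBIA encodes IkBα, the vector's own product, and its IkB_SR signal exceeded the MiG signal 1.60-fold to 7.08-fold in 4 lines but not in H23, at 7292 with IkB_SR against 9329 with MiG. A probe set can miss a vector-borne transcript and NFKBIA is itself an NF-kB target, so this check does not settle the label, and H23 RELB with IkB_SR stood at 0.473 of MiG. The H358 IKKb array stood apart from the H358 IkB_SR and MiG arrays in its Dap spike-in signal, 5908 against 1598 and 1662, and in its 3' to 5' actin ratio, 1.74 against 1.38 and 1.41. Its part in the single H358 ratios, the orders of vectors and the correlations was not tested, and the limma estimates of CCL2, CCL5 and CCL20 for IKKb are given with and without that array. The LLC arrays differed in the same spike-in by number, at 2186 with IKKb and 2480.1 with MiG for number 1 and at 19.4 with IKKb and 36.5 with MiG for number 2.

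CCL2 lay above the dim range on 10 of 15 human arrays and was brightest with IKKb in H23 and HCC827. With IKKb its signal was 11132 in H23, 11087 in HCC827, 1015 in H358, 1494 in A549 and 3.7 in PC9. With IkB_SR it was 1246 in H23, 122.7 in HCC827, 1.4 in H358, 417.0 in A549 and 2.4 in PC9. With MiG it was 7212 in H23, 927.0 in HCC827, 13.0 in H358, 665.8 in A549 and 3.8 in PC9. IKKb gave the highest CCL2 signal and IkB_SR the lowest in A549, H23 and HCC827, while in PC9 the gene was dim with every vector. The H358 IkB_SR and MiG signals were dim too, so in that line CCL2 was measurable with IKKb and with neither of the other vectors.

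The lines placed their control level differently between the vector extremes. In H23 the step from MiG to IKKb was small, 1.54-fold, and IkB_SR stood at 0.173 of MiG. In HCC827 IKKb was 12.0-fold above MiG and IkB_SR stood at 0.132 of MiG. A549 showed the same order in a narrower range, with IKKb 2.24-fold above MiG and IkB_SR at 0.626 of it. In H358 IKKb stood at least 26.6-fold above a dim control. Across the lines the control level of CCL2 ran H23, HCC827, A549, then the dim H358 and PC9. HCC827 and A549, neighbours in that order, differed 1.39-fold, less than the 1.82-fold between the duplicate LLC MiG arrays for Ccl2. With IKKb H23 and HCC827 were nearly equal, and A549 and H358 differed 1.47-fold, less than the 1.76-fold between the LLC IKKb duplicates. Those duplicates are mouse arrays that also differed in their spike-in, so they do not measure the spread of the human arrays.

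Over the 5 lines CCL2 rose with IKKb against IkB_SR by log2 3.45 ± 0.71 (limma, SE, adjusted p = 0.0383), a 10.9-fold mean on the scale of signal plus 16. It was higher in the 4 lines in which it could be measured. Over all 15212 genes tested, 0.933% passed this threshold, 0.611% as higher and 0.322% as lower with IKKb. The call was lost in limma without A549 (adjusted p = 0.061), H23 (0.111), H358 (0.096), HCC827 (0.19) or the H358 IKKb array alone (0.0693, log2 2.77). Without PC9, in which the gene was dim, it stood at log2 4.29 (adjusted p = 0.0292). Against MiG the estimate was log2 2.09 ± 0.71 for IKKb (limma adjusted p = 0.878) and -1.36 ± 0.71 for IkB_SR (adjusted p = 0.995). For IKKb against MiG it was log2 1.41 without the H358 IKKb array and 1.33 without H358.

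**Figure D1:**
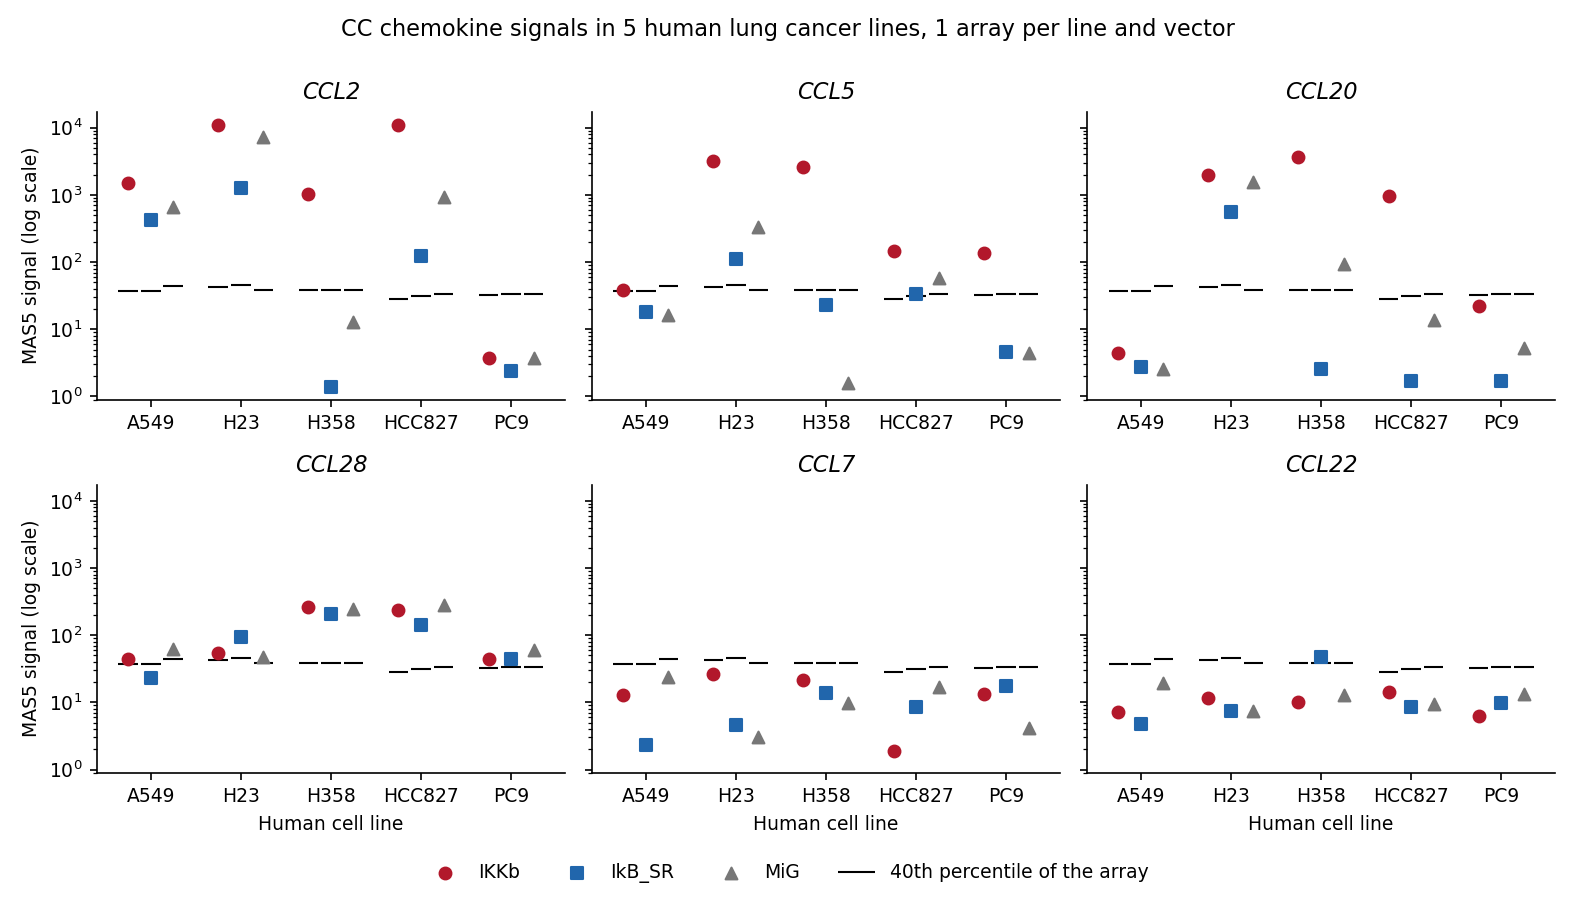
MAS5 signal (log axis) of the 6 CC chemokines in 5 human lines, 1 point per array, with the 3 vectors side by side in each line and short black bars at the 40th percentile of each array. CCL2, CCL5 and CCL20 spread over several orders of magnitude with the IKKb point highest in every line that has a point above the bars, CCL28 stays between 23.3 and 284.8, and CCL7 lies below the bars on all 15 arrays.

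CCL7, which lies next to CCL2 on chromosome 17 in the GRCh38.p14 annotation and acts on an overlapping set of receptors, was dim on all 15 human arrays. Its signals ran from 1.9 to 26.4 with IKKb, from 2.3 to 17.5 with IkB_SR and from 3.1 to 23.5 with MiG. It did not pass the filter on dim genes and was not tested. The H23 and HCC827 IKKb arrays, the brightest for CCL2, read 26.4 and 1.9 for CCL7, both in the dim range. The CCL2, CCL7 and CCL28 representatives are probe sets of the _s_at type, which can bind transcripts of more than one gene.

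CCL5 was above the dim range with IKKb in all 5 lines and with each of the other vectors in H23 and HCC827 only. Its IKKb signals were 3247 in H23, 144.2 in HCC827, 2619.6 in H358, 38.5 in A549 and 138.8 in PC9. Its IkB_SR signals were 111.2 in H23, 33.3 in HCC827, 23.1 in H358, 17.8 in A549 and 4.6 in PC9. Its MiG signals were 329.0 in H23, 58.6 in HCC827, 1.6 in H358, 16.5 in A549 and 4.5 in PC9. The A549 IKKb value sat just above its dim threshold of 37.3, so CCL5 was barely present there. In the other 4 lines the IKKb array was the highest, by 2.46-fold over MiG in HCC827 and by more in H23, H358 and PC9.

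IKKb exceeded IkB_SR for CCL5 29.2-fold in H23, at least 67.8-fold in H358, 4.34-fold in HCC827 and at least 4.19-fold in PC9. Over MiG it was 9.87-fold higher in H23, at least 68.5-fold in H358, 2.46-fold in HCC827 and at least 4.10-fold in PC9. PC9 therefore carried CCL5 with IKKb while CCL2 was dim on the same array. In H23, where CCL2 was 1.54-fold higher with IKKb than with MiG, CCL5 was 9.87-fold higher on the same pair of arrays.

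CCL5 rose with IKKb against IkB_SR by log2 3.21 ± 0.70 (limma, SE, adjusted p = 0.0458), with 3 of the 5 IkB_SR signals dim. It passed the filter on dim genes only with its IKKb arrays counted, so this p-value is no evidence by itself. The limma adjusted p was 0.0704 with no filter and 0.0835 with dim signals at the 40th percentile. The call was lost in limma without H23 (adjusted p = 0.186), HCC827 (0.116), PC9 (0.175) or the H358 IKKb array (0.0511, log2 2.33). It held without A549 (log2 3.84) and without H358 (log2 2.50). Against MiG the estimate was log2 3.05 ± 0.70 for IKKb (limma adjusted p = 0.829), 2.17 without the H358 IKKb array and 2.0 without H358. It was 4.09 with a pseudocount of 1, 2.22 with one of 64 and 2.29 with dim signals at the 40th percentile. For IkB_SR it was -0.16 ± 0.70 (limma adjusted p = 0.997), a comparison in which only H23 and HCC827 had both arrays above the dim range, at 0.338 and 0.567 of MiG.

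The other 2 CCL5 probe sets also read highest with IKKb in H23, H358, HCC827 and PC9. For IKKb minus IkB_SR on the log2 scale the mean over lines was 3.21 for the representative 204655_at, 3.80 for 1405_i_at and 3.43 for 1555759_a_at, with H358 the highest line and A549 the lowest for all 3. In A549 the other 2 probe sets were dim with all vectors. For IkB_SR minus MiG they lay further below 0 than the representative, at -0.87 and -0.65 against -0.16. The sets share the target gene and the arrays, so they are not independent measurements.

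**Figure D2:**
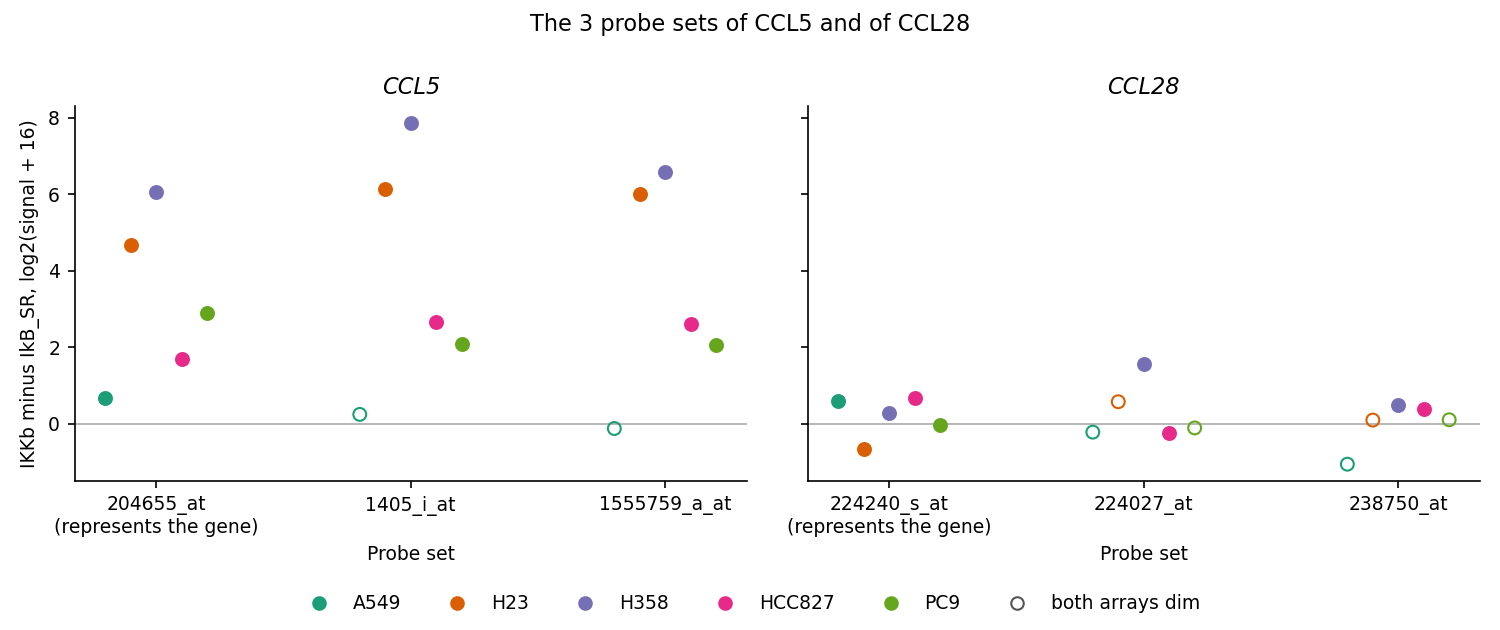
Difference between IKKb and IkB_SR in log2(signal + 16) for each of the 3 probe sets of CCL5 and of CCL28, 1 point per human line, open where both arrays were dim. For CCL5 H358 is the highest line and A549 the lowest on all 3 probe sets, with means of 3.21, 3.80 and 3.43, while for CCL28 the means are 0.18, 0.32 and 0.01.

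CCL20 was above the dim range in H23, H358 and HCC827 and dim with every vector in A549 and PC9. With IKKb it read 1960.3 in H23, 952.2 in HCC827, 3658 in H358, 4.5 in A549 and 22.2 in PC9. With IkB_SR it read 562.0 in H23, 1.7 in HCC827, 2.6 in H358, 2.7 in A549 and 1.7 in PC9. With MiG it read 1566 in H23, 13.8 in HCC827, 93.9 in H358, 2.6 in A549 and 5.2 in PC9. H23 was the one line with CCL20 above the dim range on its IkB_SR array, and it had the highest MiG signal, 16.7-fold above the next line.

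In H23 IKKb exceeded MiG 1.25-fold for CCL20 and IkB_SR stood at 0.359 of MiG, an arrangement like that of CCL2 in the same line. In H358 IKKb was 38.9-fold above MiG and at least 94.6-fold above IkB_SR. In HCC827 IKKb was at least 28.7-fold above MiG and at least 30.1-fold above IkB_SR. Over the 5 lines CCL20 stood at log2 3.28 ± 0.84 for IKKb against IkB_SR and did not pass the threshold (limma adjusted p = 0.091). It stood at log2 2.28 ± 0.84 for IKKb against MiG (limma adjusted p = 0.878) and at -1.01 ± 0.84 for IkB_SR against MiG (adjusted p = 0.995). Without the H358 IKKb array the estimate was log2 2.39 against IkB_SR (limma adjusted p = 0.171) and 1.39 against MiG, and without HCC827 it was 2.66 against IkB_SR and 1.59 against MiG.

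Sequence upstream of the start site was at hand for 4 members, CCL7, CCL20, CCL22 and CCL28, from RefSeq on GRCh38.p14. The windows of CCL20, which was above the dim range in 3 lines, and of CCL7 and CCL22, which were dim, are shown as the 250 bases before the start, 5′ to 3′, with capitals marking every match on either strand to GGGNNNNNCC, a loose form of the NF-kB site.
CCL20, chr2:227813592-227813841, plus strand: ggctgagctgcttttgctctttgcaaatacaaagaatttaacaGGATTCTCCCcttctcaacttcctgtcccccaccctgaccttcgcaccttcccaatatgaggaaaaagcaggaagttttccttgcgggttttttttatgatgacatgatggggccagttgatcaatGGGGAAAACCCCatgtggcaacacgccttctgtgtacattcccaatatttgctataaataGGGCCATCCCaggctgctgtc
CCL22, chr16:57358533-57358782, plus strand: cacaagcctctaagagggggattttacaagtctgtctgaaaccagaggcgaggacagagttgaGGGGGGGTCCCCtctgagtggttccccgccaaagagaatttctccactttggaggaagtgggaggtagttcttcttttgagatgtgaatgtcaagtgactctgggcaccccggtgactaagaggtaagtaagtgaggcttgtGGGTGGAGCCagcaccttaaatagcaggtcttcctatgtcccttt
CCL7, chr17:34269971-34270220, plus strand: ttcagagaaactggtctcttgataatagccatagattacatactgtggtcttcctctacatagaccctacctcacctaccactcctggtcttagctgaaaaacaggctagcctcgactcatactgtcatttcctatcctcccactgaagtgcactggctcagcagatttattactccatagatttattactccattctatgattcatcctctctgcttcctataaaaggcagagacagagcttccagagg
The loose motif is common, found in 54.4% of 35116 windows of this length, and 3 of the 4 members hold it. The stricter NF-kB consensus motif, found in 5.21% of the windows, is held by CCL20 and CCL22. In CCL20 it lies 79 to 70 bases before the start on the minus strand, within a run of overlapping loose matches. In CCL22 it lies 185 to 176 bases before the start on the plus strand. CCL7 holds neither motif in this window, and CCL28, which has 2 annotated starts, holds a loose match at one of them. A match describes the letters only, and enhancers outside these windows were not searched.

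CCL22 was dim on 14 of the 15 human arrays and was not tested. Its signals ran from 6.3 to 14.4 with IKKb, from 4.7 to 47.6 with IkB_SR and from 7.4 to 19.2 with MiG. The single value above the dim range was 47.6 on the H358 IkB_SR array, against a threshold of 38.7 there.

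CCL28 was above the dim range in every line and passed in no comparison of vectors. With IKKb it read 55.0 in H23, 236.6 in HCC827, 259.3 in H358, 44.0 in A549 and 43.9 in PC9. With IkB_SR it read 95.3 in H23, 142.0 in HCC827, 209.8 in H358, 23.3 in A549 and 44.8 in PC9. With MiG it read 47.3 in H23, 284.8 in HCC827, 243.0 in H358, 61.3 in A549 and 60.5 in PC9. H358 and HCC827 were the bright lines with every vector, 3.96-fold or more above the others with MiG. Within a line the vectors differed at most 2.02-fold where both arrays were above the dim range.

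The limma estimates for CCL28 were log2 0.18 ± 0.23 for IKKb against IkB_SR (adjusted p = 0.788), -0.14 ± 0.23 for IKKb against MiG (adjusted p = 0.96) and -0.32 ± 0.23 for IkB_SR against MiG (adjusted p = 0.995). Its other probe sets, 224027_at and 238750_at, were dim on 9 of 15 arrays each, on all arrays of A549, H23 and PC9, and bright in H358 and HCC827. In H358 224027_at read 262.4 with IKKb, 78.7 with IkB_SR and 138.8 with MiG, a spread that the representative, at 259.3, 209.8 and 243.0, did not show. In HCC827 the same 224027_at read 145.7 with IKKb, 174.6 with IkB_SR and 129.3 with MiG. The mean over lines for IKKb against MiG differed in sign by probe set, at -0.14 for the representative, 0.17 for 224027_at and 0.08 for 238750_at. The means of 224027_at and 238750_at take in the dim pairs of A549, H23 and PC9, which have no order. For 238750_at the lowest and highest lines, A549 at -1.35 and PC9 at 1.29, were such pairs.

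**Figure D3:**
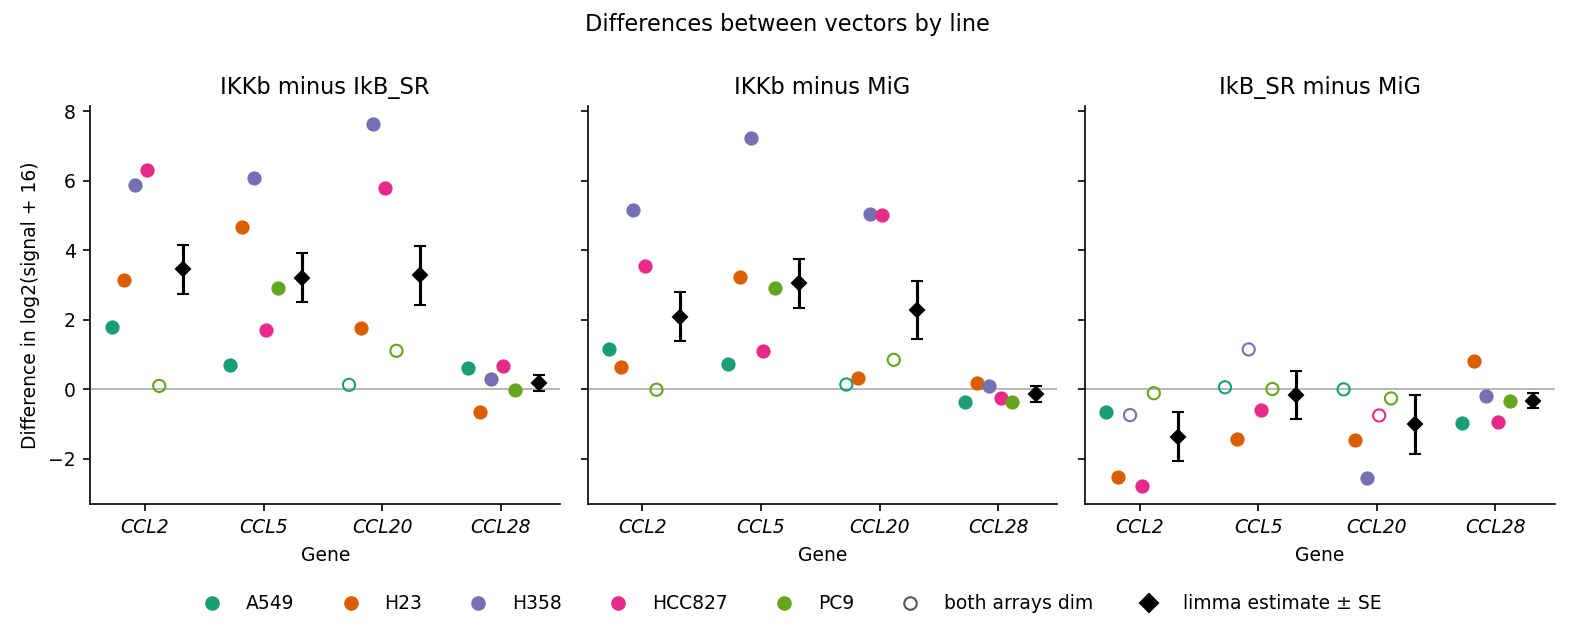
Difference in log2(signal + 16) between vectors for the 4 members tested, 1 point per human line (open where both arrays were dim) with the limma estimate and its SE as a black diamond. For IKKb minus IkB_SR the estimates of CCL2, CCL5 and CCL20 lie at 3.45, 3.21 and 3.28 with the lines spread from near 0 to 7.63, and that of CCL28 at 0.18.

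Of the 6 members, 4 passed the filter and were tested, and 2 of these, CCL2 and CCL5, passed between IKKb and IkB_SR, both higher. Over all genes tested 0.933% passed there, 0.611% as higher. In that comparison 3 members and 2160 of 15212 genes had an unadjusted limma p below 0.05. CCL5 passed the filter with 9 arrays, 5 of them IKKb arrays, and CCL20 with 6, 3 of them IKKb arrays. Neither would have passed on its IkB_SR and MiG arrays alone, so a count over the tested members is no evidence by itself. Between IKKb and MiG limma called 0 of the 4 members and 0% of all genes, while 3 members and 839 of 15212 genes had an unadjusted p below 0.05. These were CCL5, CCL2 and CCL20, all higher with IKKb. Between IkB_SR and MiG limma called 0 members and 0% of all genes, with 0 members and 675 genes at an unadjusted p below 0.05. The IKKb and IkB_SR comparisons with MiG share the 5 MiG arrays.

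In single lines the members that exceeded 4-fold were CCL2, CCL5 and CCL20. Counting a gene as called when it differed 4-fold or more, with dim signals raised to the 40th percentile, IKKb over MiG called CCL2, CCL5 and CCL20 in H358, where 0.574% of genes were called as higher. It called CCL2 and CCL20 in HCC827 (0.347% of genes), CCL5 in H23 (0.0475%), CCL5 in PC9 (0.0616%) and 0 members in A549 (0.0138%). IKKb over IkB_SR called CCL2, CCL5 and CCL20 in H358 (0.735%) and in HCC827 (0.927%), CCL2 and CCL5 in H23 (0.148%), CCL5 in PC9 (0.341%) and 0 members in A549 (0.0823%). IkB_SR over MiG called CCL2 as lower in H23 (0.0541% of genes lower) and in HCC827 (0.348%), and 0 members as lower in A549 (0.0415%), H358 (0.0136%) and PC9 (0.164%). For IKKb over IkB_SR the NF-kB readouts did not rank the lines alike. The TNFAIP3 ratio was highest in HCC827 and H358, as was that of RELB, at 6.5 and 6.48. That of NFKB2, an NF-kB subunit gene, was 5.80 in HCC827 and lowest in H358, at 2.30. In A549, where 0 members were called, the RELB ratio was 6.0, close to those of HCC827 and H358. The TNFAIP3 ratio there was 4.99 and the NFKB2 ratio 3.32. For IKKb over MiG the ratios of RELB, NFKB2, TNFAIP3 and NFKBIA were each highest in H358 and HCC827. NFKB2 stood there at 2.94 and 1.94, against 1.42 in A549. The part of these ratios in the member calls was not tested.

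The order IKKb above MiG above IkB_SR was met in 4 of 5 lines by CCL2 and by CCL20, in 2 by CCL5 and in 1 by CCL28. The order held in 4 or more lines for 1.51% of all genes tested. The count for CCL2 includes H358, where MiG and IkB_SR were both dim, and that for CCL20 includes HCC827, likewise, and PC9, dim throughout. Without those lines the order was met in A549, H23 and HCC827 by CCL2 and in H23 and H358 by CCL20, short of 4 lines for either. The share over all genes also counts orders among dim signals. CCL20 was among the genes tested only with its IKKb arrays counted, so its order beside this share is no evidence by itself.

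After each line's mean was subtracted, CCL2 and CCL20 had a Pearson correlation of 0.93 over the 15 arrays, CCL2 and CCL5 of 0.76, and CCL5 and CCL20 of 0.74. CCL28 lay at 0.23 with CCL2, -0.04 with CCL5 and 0.15 with CCL20. These points are 3 arrays from each of 5 lines and share their arrays. By the same measure the 4 genes most like CCL2 were LPXN (0.94), C6orf62 (0.94), TRAF1 (0.93) and CDK17 (0.93). TRAF1, a signalling adaptor of the TNF receptor family, passed between IKKb and IkB_SR (log2 1.70, limma adjusted p = 0.0328), and LPXN, C6orf62 and CDK17 did not. Those most like CCL5 were ANAPC13 (0.93), SLC25A24, ITGA1 and POMGNT1 (0.92 each), which did not pass between IKKb and IkB_SR. Those most like CCL20 were the matrix protease gene MMP9 (0.97, log2 2.43 with limma adjusted p = 0.109 between IKKb and IkB_SR), TRIM27 (0.97), CEBPG and DYNC1LI1 (0.96 each). TRIM27, CEBPG and DYNC1LI1 did not pass either. All these genes were picked as the highest of the genes tested, so their correlations are high by choice.

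The rest of the CC chemokine system was mostly dim in the human lines. Of 18 other CC ligands 14 had a probe set of their own and 2, CCL19 and CCL26, passed the filter. Limma called neither in any comparison, and their median was -0.27 for IKKb against IkB_SR, against -0.01 over all genes. Of 14 CC and atypical receptors 12 had a probe set and 3, CCR1, ACKR2 and CCRL2, passed the filter. Limma called 0 of them in any comparison, and their median for IKKb against IkB_SR was -0.21.

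In LLC cells Ccl2, Ccl7 and Ccl5 read higher on both IKKb arrays than on both MiG arrays. Ccl2 read 10553 and 5988 with IKKb, against 1980.2 and 1088 with MiG. Ccl7 read 485.9 and 210.2 with IKKb, against 85.8 and 52.2 with MiG. Ccl5 read 119.4 and 74.1 with IKKb, against 6.6 and 9.6 with MiG, both dim. The lowest IKKb array of Ccl2 was 3.02-fold above its highest MiG array, and that of Ccl7 2.45-fold, past the largest ratios between duplicates, 1.82 for Ccl2 and 2.31 for Ccl7. Between arrays of the same number Ccl2 was 5.33-fold and 5.50-fold higher with IKKb, and Ccl7 5.66-fold and 4.03-fold. For Ccl5 the ratio of the group means on the log scale, with both MiG arrays at their 40th percentiles, was at least 2.63.

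Ccl7 was thus above the dim range on all 4 LLC arrays, while CCL7 was dim on all 15 human arrays, and the probe sets of the species are different designs. Ccl20, dim in MiG (6.6 and 3.9), read 87.2 and 14.1 with IKKb, of which the second was dim. Ccl22 was dim with IKKb (14.2 and 7.8) and read 45.7 and 20.2 with MiG, of which the second was dim. Ccl20 and Ccl22 each had 1 array above the dim range and were not tested. Ccl28 read 133.9 and 165.2 with IKKb, against 189.1 and 145.4 with MiG, and its groups overlapped.

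The limma estimates in LLC were log2 2.42 ± 0.37 for Ccl2 (adjusted p = 0.381), 2.20 ± 0.42 for Ccl5 (0.915), 2.02 ± 0.44 for Ccl7 (1) and -0.14 ± 0.29 for Ccl28 (1). In this fit, which had no replicate block, limma called 0 of the 4 members tested and 0% of all 12549 genes. The fit with the block, in which calls differed, is given in the closing section. At an unadjusted p below 0.05 stood 238 genes, Ccl2, Ccl5 and Ccl7 among them. Ccl5 entered the test through its 2 IKKb arrays alone, and its estimate was log2 3.40 with a pseudocount of 1, 1.14 with one of 64 and 1.09 with dim signals at the 40th percentile. With 1 array left out, the limma estimates ran from log2 2.0 to 2.85 for Ccl2 and from 1.44 to 2.59 for Ccl7. For Ccl5 they were 2.11 without the first MiG array and 2.29 without the second, and it failed the filter when an IKKb array was left out. Such a fit has 1 residual degree of freedom, so its spread comes almost wholly from other genes and its p-values are not given. Both IKKb arrays lay above both MiG arrays for 10.9% of all genes and below both for 11.2%, and at least 2-fold above, in signals as deposited, for 0.486%, a group that holds Ccl2, Ccl7 and, against dim signals, Ccl5. Of the other CC ligands 4 and of the receptors 7 were tested in LLC, and limma called 0 of either.

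**Figure D4:**
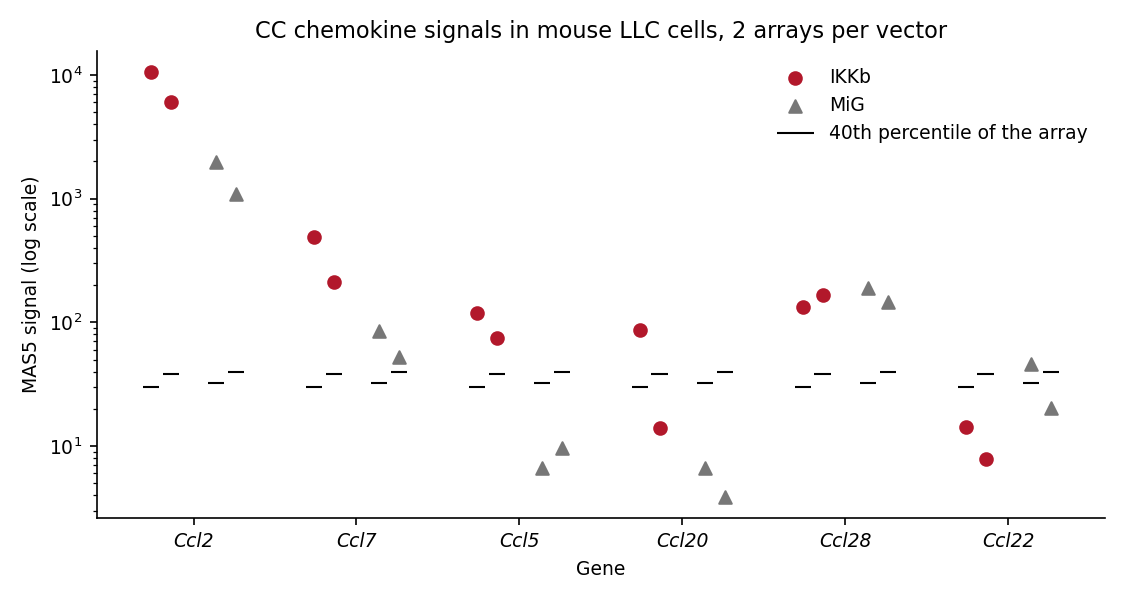
MAS5 signal (log axis) of the 6 mouse CC chemokines in LLC cells, 1 point per array with IKKb left of MiG, and short black bars at the 40th percentile of each array. Ccl2, Ccl7 and Ccl5 have both IKKb points above both MiG points, Ccl28 overlaps, and most Ccl20 and Ccl22 points lie below the bars.

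Marker signals also differed between the LLC arrays of the vectors. The summed signal of 5 epithelial markers was 9434 and 9885 with IKKb, against 14482 and 12088 with MiG, and Krt19 was dim with IKKb and not with MiG. The 9 leukocyte markers measured summed to 827.8 and 816.8 with IKKb, against 899.3 and 904.6 with MiG. Ptprc, Itgam, Cd2 and H2-Aa were dim on all 4 arrays. Cd14, Cd68, Csf1r and Ms4a1 lay above the dim range on all 4. Cd14 was the brightest, at 503.5 and 566.1 with IKKb and 509.7 and 533.9 with MiG. The 7 fibroblast and endothelial markers summed to between 10208 and 11434 with IKKb and between 10837 and 20298 with MiG, nearly all of it Col3a1. The part of these differences in the chemokine values was not tested. In the human lines the same 7 markers summed to between 849.7 and 981.5 with IKKb. The sums lay between 870.9 and 1773 with IkB_SR and between 1007 and 1662 with MiG. PDGFRB and VWF were dim on all human arrays, while COL1A1 and PECAM1 lay above the dim range on all of them.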

How the data were processed

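Total RNA from sorted, transduced cells was hybridised to 19 single-colour Affymetrix arrays, per the labels. Each deposited value is a linear-scale intensity of a probe set, made by the authors with GCOS 1.4 and MAS5 per the submitters' processing notes, whose settings are not given in the sources used here. Trimmed by 2 percent at either end, the mean signal was 500 on every array. Signals near background are noisy in MAS5, and the common scaling hides differences in total RNA.

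Probe sets naming 1 gene were kept (41097 of 54675 human, 34958 of 45101 mouse), with the probe set of highest mean log2 signal standing for the gene. Values were log2 of signal plus 16, with no further normalisation. Genes brighter than the 40th percentile on 5 or more human, or 2 or more mouse, arrays were tested (15212 and 12549) in limma 3.58.1 under R 4.3.3, with the intensity trend in eBayes, two-sided, Benjamini-Hochberg over all genes and a threshold of 0.05. All 15 human arrays entered 1 fit with the line as a block, since each line carried every vector, and the LLC fit had no block. Line ratios are of signals without an added constant. A ratio to a dim signal uses the 40th percentile of that array and is a lower bound. The fits were tested on simulated data.

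The members and lists were chosen with earlier results of these data known. The members were named whether or not they passed, with the 4 genes most similar to each of CCL2, CCL5 and CCL20, and list genes only where they passed. List genes that passed the filter are named too, a choice made after their values were seen. Alternatives covered the pseudocount (1 and 64), scaling, filter, choice of probe set, prior, block, arrays fitted and leaving out lines or arrays. Python 3.11.15 and matplotlib 3.10.9 drew the figures.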

Additional observations from a re-analysis of the deposited data

Results flagged for a closer look

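There were 36 sets of 5 human values, 6 members by 3 vectors and 3 differences. In 2 of them a line lay far from the other 4, near the share of about 1 in 20 that chance gives. In both sets the other values were dim, and adding 16 draws dim values close together. CCL20 in the H23 IkB_SR array stood at 9.17 on the log2(signal + 16) scale, while the other 4 IkB_SR arrays, all dim, lay between 4.14 and 4.22. CCL22 in the H358 IkB_SR array stood at 5.99, while the other 4, all dim, lay between 4.37 and 4.68, and this was the one CCL22 value above the dim range in the human lines.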

How the results depend on the processing

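Between IKKb and IkB_SR 2 members passed as reported. With a pseudocount of 1, no filter, the mean of the probe sets, eBayes without a trend, no replicate block (the line left out of the model), arrays of the compared vectors only, or dim signals set to the 40th percentile, 0 passed. With a pseudocount of 64, quantile normalisation or the representative chosen by mean linear signal, 1 passed. Leaving out a line or the H358 IKKb array gave between 0 and 1. Over all genes 142 passed, against 86 with no filter, 21 without a trend, 15 with the compared vectors only, 0 with no replicate block and 24 to 130 without a line. The last choice of probe set and the floor for dim signals were chosen after seeing the data. CCL2 lost its call in 12 of 18 alternatives and CCL5 in 14 of 18, with limma adjusted p from 0.0272 to 1 and from 0.037 to 1. Their estimates stayed above 0 throughout, from log2 2.74 to 4.29 and from 2.33 to 3.88. CCL20 stayed between 2.38 and 4.80 and did not pass in any of the 15 alternatives that kept it. It failed the filter without H23, without H358 and with the compared vectors only.

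Against MiG, 0 human members passed in each of the 18 alternatives of either vector. CCL28 changed sign for IKKb against MiG with the mean of the probe sets (0.02) and the linear choice of probe set (0.08), and for IkB_SR against MiG with the linear choice (0.07). CCL5 changed sign for IkB_SR against MiG with a pseudocount of 1 (0.20) and without H23 (0.16); leaving out a line gave -0.49 to 0.16.

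In LLC the replicate numbers are not known to pair the arrays. Same-numbered arrays deviated together across genes with r = 0.53 and had like Dap spike-in signals. With the replicate block 3 members passed, Ccl2, Ccl5 and Ccl7 (limma adjusted p = 5.46e-15, 0.00056 and 1.16e-06), among 223 genes. Leaving out 1 array kept the estimates of Ccl2, Ccl5 and Ccl7 above 0 where they passed the filter. That of Ccl28 (-0.31 to 0.03) changed sign without the first MiG array. These LLC fits have 1 residual degree of freedom, so the spread comes almost wholly from other genes, and a lone array is assumed to vary like the other vector's.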
